A study of Rattus norvegicus with 2 samples.

Results

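Apolipoproteins are the proteins that carry lipid in blood and tissue fluid, and 10 of their genes were examined here in rat intracranial arterial tissue. The genes were Apoa1, Apoa2, Apoa4, Apoa5, Apob, Apoc1, Apoc2 and Apoc3, which are made in liver, and Apoe and Apod, which brain and vessel wall also make. The first 8 are called liver-restricted here as a group name only. Several of them are also made in intestine, among them Apoa4, and Apoc1 also in macrophages. The 10 genes were chosen by name with earlier results of these arrays known, so their values are a description. Each of the 10 genes was matched by RefSeq accession to 1 probe, and all 10 probes were well above background on both arrays, out of 11902 genes with a value. For Apob this held in the aneurysm library for 1 of 2 spots only.

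The series compared 1 library of untreated intracranial arterial wall, labelled normal, with 1 library of an intracranial aneurysm lesion collected 3 weeks after induction. Strain, age, sex, the way of induction and the number of animals behind each RNA were not stated in the labels. Each library was hybridised to 1 one-colour Agilent array, a glass slide of short DNA probes whose brightness follows the amount of labelled RNA. With 1 array per group there is no replicate, so the libraries are described and no p-value accompanies a difference.

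Most circulating apolipoproteins coat lipoprotein particles that are assembled in hepatocytes and enterocytes. Apob is the scaffold of the particles that carry triglyceride and cholesterol to tissues, and Apoa1 is that of high-density lipoprotein, which takes cholesterol back to the liver. The small exchangeable C apolipoproteins and Apoa5 move between particles and set how fast lipoprotein lipase breaks them down. Apoe is the ligand by which particles bind the LDL receptor family, and astrocytes and macrophages secrete it outside the liver. Apod belongs to the lipocalins, a protein family unrelated to the others, and is made by glia and by fibroblasts around vessels.

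Signals below are processed spot intensities in scanner units, given as the mean over repeat spots (after averaging logs) or spot by spot. A difference is log2 aneurysm minus control after each array was divided by its 75th percentile, 621 for the control and 801 for the aneurysm array, so it is not the plain ratio of the intensities printed. The value after ± is the spot error, which covers repeat spots within an array and no variation between animals. The software called 74.7% of non-control spots well above background on the control and 76.4% on the aneurysm array, and 0 saturated. The brightest negative control spot, which matches no rat transcript, read 32.1 on the control and 5.61 on the aneurysm array. The number of arrays limits the precision. Vessel wall markers were present in both libraries, with all 8 smooth muscle markers and 7 of 8 endothelial markers well above background on both arrays and the eighth without a matched probe.

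All 8 liver-restricted apolipoprotein genes were lower in the aneurysm library, by 4.97-fold to 28.2-fold (log2 -2.31 to -4.82, median -4.32), while Apoe and Apod differed by 1.19-fold and 1.09-fold. Over all 11902 genes the median was 0.001, and 3.91% were at least 2-fold lower and 0.882% at least 2-fold higher. Among the 8 genes, 8 were at least 4-fold lower and 5 at least 16-fold lower, against 8.43% of all genes at least 1.5-fold, 1.5% at least 4-fold and 0.504% at least 16-fold lower. None of the 10 was higher by 1.5-fold or more, as 4.25% of all genes were, and 0.0168% of all genes were at least 4-fold higher. The counts of the 8 depended on the background correction: with normexp, described below, 7 or 6 were at least 4-fold and 1 or 0 at least 16-fold lower, on processed or median signals. With spike-in scaling 4 were at least 16-fold lower. Since the genes were chosen from this contrast, nothing is read from these shares. In bulk tissue, fewer cells of a type and less RNA per cell cannot be told apart.

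**Figure D1:**
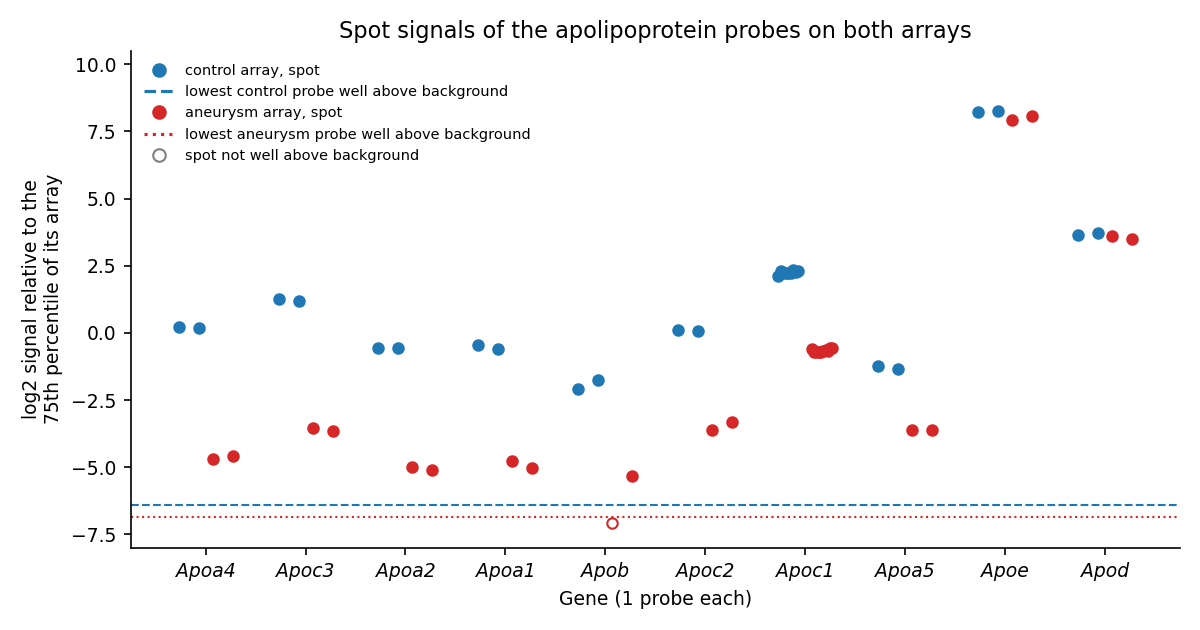
Log2 signal of every unflagged spot of the 10 probes (y axis, relative to the 75th percentile of its array) in the control (blue) and aneurysm (red) library, by gene in order of difference. An open symbol is a spot not well above background, and the lines mark the lowest probe well above background on each array. Control and aneurysm spots are apart by over 2 log2 units for the first 8 genes and lie close together for Apoe and Apod.

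The A apolipoproteins of high-density lipoprotein were near the aneurysm array's lower limit. Apoa1, the activator of the cholesterol-esterifying enzyme Lcat, had spot signals of 450 and 407 in control wall and 29.1 and 24.6 in the aneurysm library. The library difference was thus far wider than that between repeat spots, at -4.37 ± 0.24 or 20.6-fold. Apoa2, another protein of these particles, had spots of 421 and 422 in control wall and 24.9 and 23.3 in the aneurysm library. It was 22.6-fold lower there (-4.50 ± 0.24). Apoa4, which intestine secretes on triglyceride-rich particles and rat liver also makes, had spots of 713 and 705 against 31.3 and 33.7. That made it nominally the lowest of the 10 genes, at -4.82 ± 0.18 or 28.2-fold, though not separated from Apoc3 by the spot error. The aneurysm signals of these 3 genes all exceeded that array's brightest negative control spot (5.61) and its lowest probe well above background (6.88).

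Apob, the structural protein of very-low-density and low-density lipoprotein, had the least certain value. Its spots read 147 and 183 in the control library. In the aneurysm library 1 spot read 20.2 and was well above background, and the other read 5.90 and was not. The mean difference was -4.28 ± 0.35, and single pairs of spots gave -5.33 to -3.24. Every pair was thus more than 2-fold lower, but the aneurysm spots lay far apart.

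Genes that act on lipoprotein lipase covered nearly the whole range of the 8. Apoc3, an inhibitor of triglyceride clearance, had spots of 1472 and 1400 in control wall and 69.2 and 63.2 in the aneurysm library, a difference of -4.81 ± 0.11 (28.0-fold). Apoc2, the cofactor that lipoprotein lipase requires, had spots of 675 and 656 against 65.1 and 79.9, or -3.57 ± 0.11 (11.9-fold). Apoa5, which promotes lipolysis, had spots of 263 and 243 against 65.2 and 66.0. It had the smallest difference of the 8, at -2.31 ± 0.12 (4.97-fold), so that its aneurysm signal was 20.1% of the control signal after scaling, compared with 3.57% for Apoc3 and 8.40% for Apoc2.

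Apoc1, which hinders uptake of particles by their receptors and is also made by macrophages, was measured most often, by 9 unflagged control spots and 10 aneurysm spots. The control spots lay between 2683 and 3142 with a median of 2929, and the aneurysm spots between 483 and 547 with a median of 507. No aneurysm spot reached a control spot, and the difference was -2.91 ± 0.03 (7.50-fold). Its aneurysm signal stayed far above the background of that array, at 13.3% of the control signal after scaling.

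Apoe and Apod stood apart from the other 8. Apoe had spots of 185415 and 187866 in control wall and 192811 and 213810 in the aneurysm library, a difference of -0.25 ± 0.05 after scaling. Its direction was not settled, as quantile normalization gave 0.06 and spike-in scaling 0.05. Apod had spots of 7701 and 8114 in control wall and 9667 and 9127 in the aneurysm library, a difference of -0.12 ± 0.05, or 0.18 with spike-in scaling. Spike-in scaling moved the median of all genes to 0.30. Relative to that median Apoe was at -0.25 and Apod at -0.12, nearly unchanged because this scaling shifts all genes equally. Relative to the median of all genes under quantile normalization, Apoe was at 0.04 and Apod at -0.15. The interval between Apoa5, the gene nearest 0 among the 8, and Apoe was 2.07 log2 units.

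In the order of differences, several neighbours were not separated by more than 2 spot errors. Apoa4 and Apoc3 differed by 0.01 ± 0.21, Apoc3 and Apoa2 by 0.31 ± 0.27, Apoa2 and Apoa1 by 0.13 ± 0.34, and Apoa1 and Apob by 0.09 ± 0.42. These 5 genes thus had no order among neighbours. The step from Apob to Apoc2 (0.71 ± 0.37) also stayed within 2 spot errors, and so did that from Apoe to Apod (0.13 ± 0.07). By contrast, Apoc1 lay 0.67 ± 0.12 above Apoc2, and Apoa5 0.59 ± 0.13 above Apoc1. Ranked from the lowest difference among the 11902 genes, Apoa4 was number 33, Apoc3 34, Apoa2 40, Apoa1 44, Apob 48, Apoc2 72, Apoc1 103 and Apoa5 144. Apoe (2597) and Apod (4086) lay in the bulk of the distribution.

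**Figure D2:**
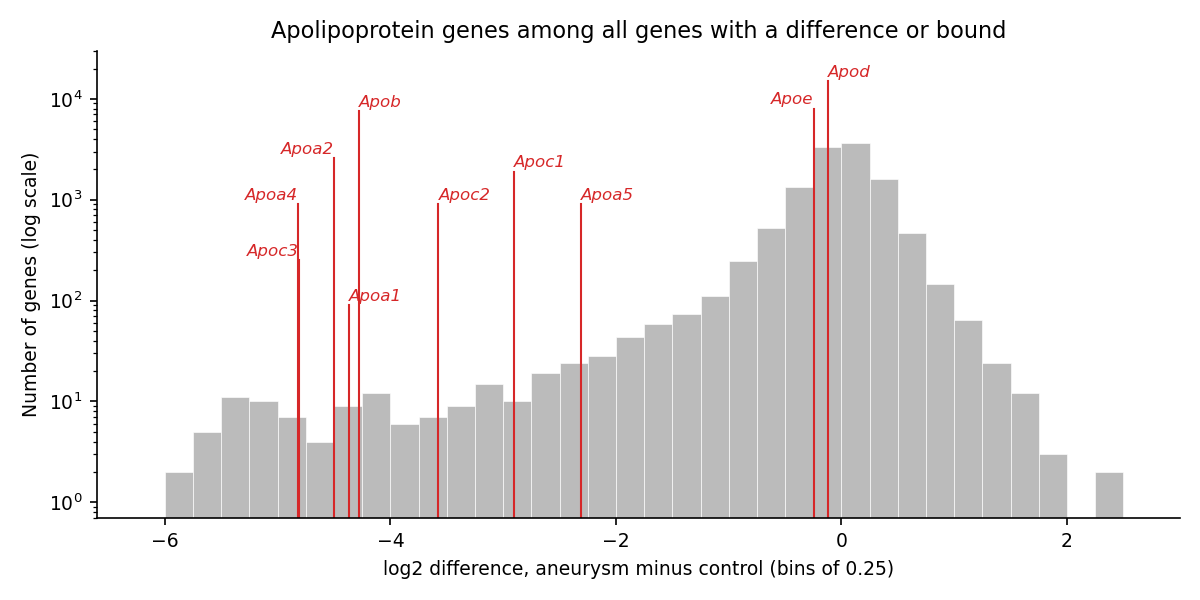
Number of genes (y axis, log scale) by log2 difference aneurysm minus control (x axis, bins of 0.25) for the 11902 genes with a difference or bound; red lines mark the 10 apolipoprotein genes. The 8 liver-restricted genes lie in the lower tail between -4.82 and -2.31, and Apoe (-0.25) and Apod (-0.12) lie near 0, both above 0 with spike-in scaling.

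Normexp, a background correction that adds an offset of 50 and thereby shrinks differences of dim probes, left all 8 genes at least 2-fold lower. On processed signals it gave -4.05 for Apoc3, -3.59 for Apoa4, -3.06 for Apoa2, -3.02 for Apoa1, -2.92 for Apoc2, -2.78 for Apoc1, -2.16 for Apob and -1.75 for Apoa5. Apob moved the most, to below the size of Apoc1 and Apoc2, whereas Apoc1 kept nearly its whole difference. The order among the 8 therefore depended on the background correction, while Apoa5 was at the small end with and without it. Over all genes 213 were then at least 2-fold lower.

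**Figure D3:**
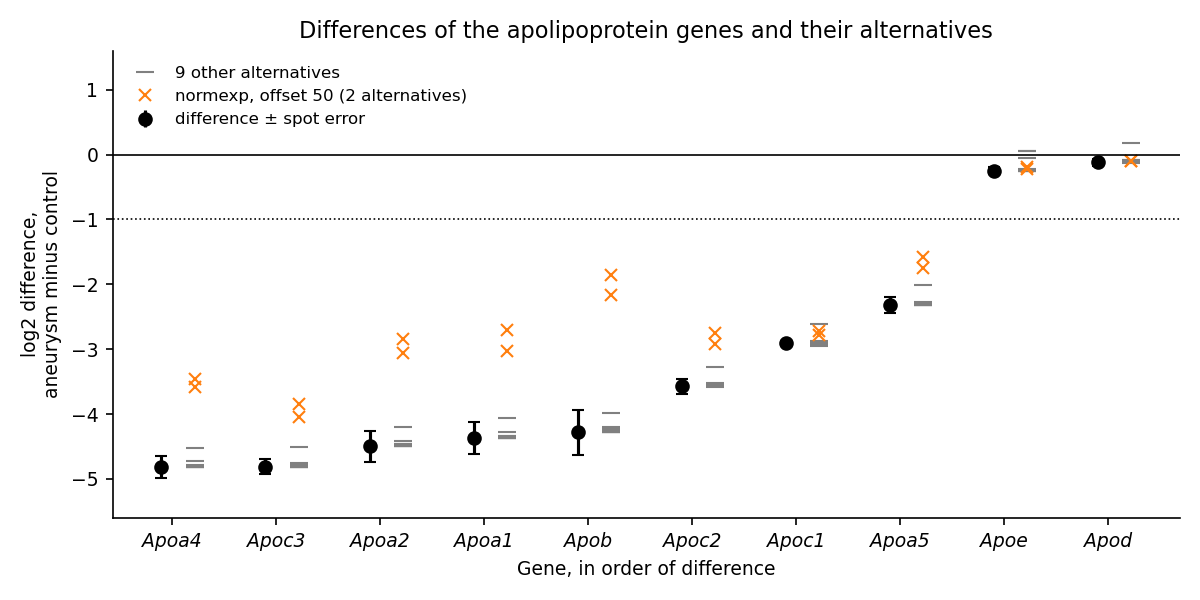
Log2 difference aneurysm minus control (y axis) of the 10 genes in order. Black points are the values with the spot error, grey dashes 9 alternatives of scaling, filter or probe choice, and orange crosses normexp on 2 kinds of signal. All values of the first 8 genes lie below the dotted line of a 2-fold lower signal, and those of Apoe and Apod lie on both sides of 0.

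The genes lie partly in gene clusters, in which neighbours differed. In the RefSeq table of the assembly GRCr8, used here for gene order, Apoa1, Apoc3, Apoa4 and Apoa5 follow each other on chromosome 8. The first 3 of these were at -4.37, -4.81 and -4.82, and Apoa5 was at -2.31. The flanking genes with a value were close to 0 or above it. Sidt2, a lysosomal nucleic acid transporter, was at -0.09 ± 0.07, and Pafah1b2, a subunit of platelet-activating factor acetylhydrolase, at 0.11 ± 0.09. On the other flank Zpr1, a zinc finger protein next to Apoa5, was at 0.33 ± 0.22. Bud13, a splicing factor gene, was well above background in the aneurysm library only, at 0.70 ± 0.56, which is the measured difference and not a strict limit.

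On chromosome 1 the order is Apoc2, Apoc4, Apoc1 and Apoe. Here Apoc2 (-3.57) and Apoc1 (-2.91) were far lower, but Apoe (-0.25) was not. Apoc4, an apolipoprotein gene between the lower pair, was at -0.61 ± 0.06 by its brighter probe, with spots of 1603 and 1485 in control wall and 1283 and 1330 in the aneurysm library. A second Apoc4 probe with 1 spot gave -0.96 ± 0.10. Of the flanking genes, Clptm1 was at -0.16 ± 0.05, Clasrp at -0.25 ± 0.05, Tomm40, part of the mitochondrial import pore beside Apoe, at 0.32 ± 0.16, Nectin2 at -0.05 ± 0.14 and Bcam at 0.33 ± 0.06. The signs of Clptm1, Clasrp, Nectin2 and Sidt2 turned under at least 1 scaling. The large differences were thus not shared by the flanking genes measured, nor by every apolipoprotein gene of the chromosome 1 cluster.

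**Figure D4:**
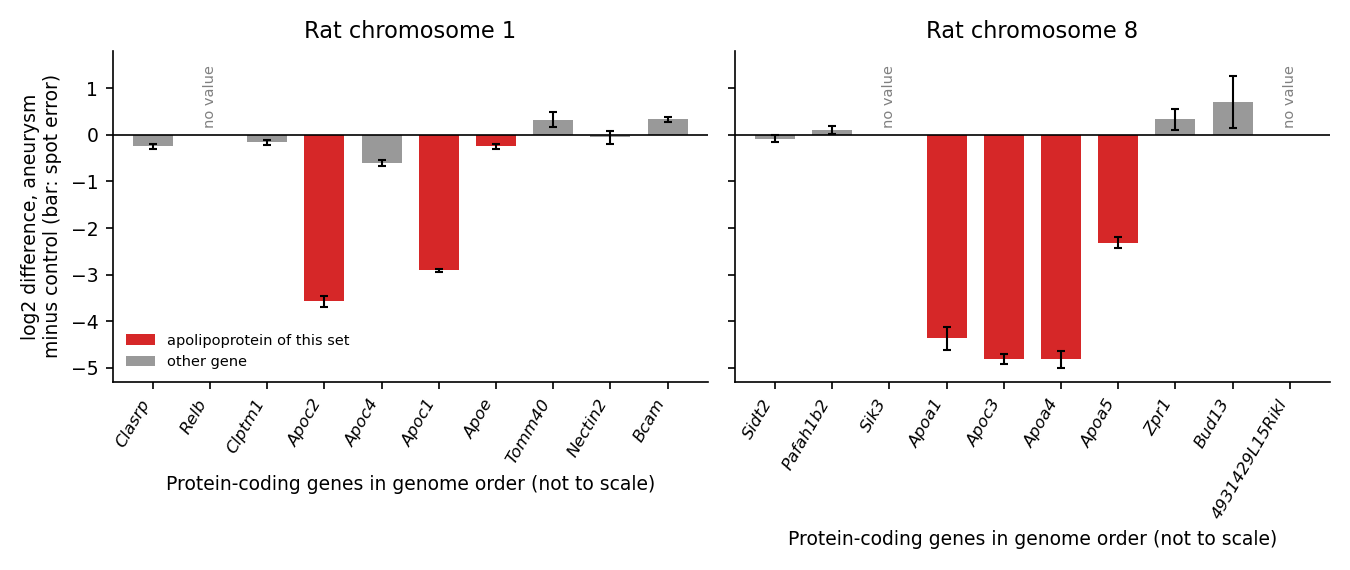
Log2 difference aneurysm minus control (y axis; error bars are the spot error) of the apolipoprotein clusters on rat chromosomes 1 and 8 with up to 3 protein-coding genes on either side, in genome order and not to scale. Red bars are apolipoproteins of the set of 10 and grey bars other genes. Apoa1, Apoc3, Apoa4, Apoa5, Apoc2 and Apoc1 are between -4.82 and -2.31, and every other bar is between -0.61 and 0.70.

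Promoter sequences show the letters at the starts of genes with large and with small differences. RefSeq windows of GRCr8, 250 bases before to 50 after an annotated start, were found for Apoa4, Apoa5, Apoc1, Apoc2, Apoe and Apod, 10 windows in all. The letters TATAAA, those of a TATA box, were searched on both strands and occur in 14.2% of all 33469 windows. Of the 10 windows 4 held them, from 3 of these 6 genes, Apoa5, Apoc2 and Apod. The 4 include 2 windows of Apoa5, which overlap. Below are the 100 bases just before the start, 5′ to 3′ on the gene's strand, for these 3 genes and for Apoa4. Apoa4 had nominally the largest difference, though not separated from Apoc3 by the spot error. Capitals mark TATAAA.
Apoa5 (GRCr8 chr8:55457771-55457870, plus strand): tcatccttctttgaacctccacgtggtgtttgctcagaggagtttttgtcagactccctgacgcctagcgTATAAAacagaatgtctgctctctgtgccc
Apoc2 (GRCr8 chr1:88462366-88462465, minus strand): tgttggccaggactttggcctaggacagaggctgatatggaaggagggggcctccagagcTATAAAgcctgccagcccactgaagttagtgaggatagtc
Apod (GRCr8 chr11:82936120-82936219, plus strand): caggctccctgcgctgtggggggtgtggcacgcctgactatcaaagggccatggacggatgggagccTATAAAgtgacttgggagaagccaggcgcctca
Apoa4 (GRCr8 chr8:55435679-55435778, plus strand): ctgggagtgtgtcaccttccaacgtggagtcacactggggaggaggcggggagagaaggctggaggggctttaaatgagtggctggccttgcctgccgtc

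The match began 30 bases before the start in Apoa5, 40 in Apoc2 and 33 in Apod, so that it occurred in 2 genes that were lower in the aneurysm library and in 1 that was not. Apoa5 has a second annotated start, for which the same letters lie 184 bases upstream. Other motifs were searched on both strands in the whole windows. These were CAAAGNNCA, the core of sites for the liver factor HNF4A, and TTGCNNAA for C/EBP proteins. They occur in 6.08% and 10.6% of all windows, and windows of 0 of the 6 genes held either of them. That says only that these letters are not in these windows.

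Among other apolipoprotein genes, 9 of 13 listed had a value, with a median of -0.12, and 3 were at least 2-fold lower and 0 at least 2-fold higher. Saa4, a liver-made apolipoprotein of high-density lipoprotein, was at -4.23 ± 0.13 (-3.24 at its smallest, with normexp), with mean signals of 806 in control wall and 55.3 in the aneurysm library. A dimmer Saa4 probe, well above background in the control only, had a bound of -2.54. Apoh, beta-2-glycoprotein I of plasma, was well above background in the control only and was 17.2-fold lower (bound -4.11 ± 0.35), but with normexp the difference was as small as -1.87. Its dim aneurysm value lay above the lowest passing value of that array, as did those of Gpihbp1, Lipc and Creb3l3, so these bounds equal the measured differences and are estimates with a spot error. Apom, the carrier of sphingosine-1-phosphate made in liver and kidney, was 2.98-fold lower (-1.58 ± 0.16, 1 spot per array). Apold1, an endothelial gene named for its similarity to another apolipoprotein family, was at 0.86 ± 0.16, and between 0.53 and 1.16 under the alternatives.

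Receptors that bind these proteins mostly showed small differences. Of 19 listed receptor and adaptor genes 12 had a value, with a median of 0.08, 1 at least 2-fold lower and 0 at least 2-fold higher. With quantile normalization or spike-in scaling 0 were at least 2-fold lower. Gpihbp1, the endothelial anchor of lipoprotein lipase, had a bound of -0.43 ± 0.61. Sort1, a sorting receptor that binds Apob, was at 0.27 ± 0.07, and Lsr, a receptor for remnant particles, at 0.18 ± 0.06.

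Genes of lipoprotein assembly, lipolysis and remodelling had a median of -0.12 over 14 of 22 listed, with 3 at least 2-fold lower and 0 at least 2-fold higher. All 3 were well above background in the control only, at dim signals. Pon1, the paraoxonase of high-density lipoprotein, was at least 6.46-fold lower (-2.69 ± 0.37). Lipc, hepatic lipase, was an estimated 2.62-fold lower (-1.39 ± 0.57). All 3 fell short of 2-fold under normexp, the smallest differences being -0.87 for Pon1 and -0.57 for Lipc. Pla2g7, a phospholipase carried on lipoproteins and made by macrophages, was at -0.96 ± 0.08.

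Transcription factors of liver and lipid metabolism had a median of -0.24 over 14 of 20 listed, with 3 at least 2-fold lower and 0 at least 2-fold higher. Of the 14, 10 were below 0 and 4 above. The highest was at 0.62 ± 0.67 and was well above background in the aneurysm library only. Creb3l3, a membrane-bound factor that in liver drives Apoa4 and Apoc2 among others, had an aneurysm signal estimated at 6.67% of the control (-3.91 ± 0.48). Its mean signals were 93.7 and 8.07, and it was well above background in the control only. Under the alternatives Creb3l3 was between -3.91 and -1.36, nearest 0 with normexp. Onecut1, also named HNF6, had an aneurysm signal of at most 23.8% (bound -2.07 ± 0.71), but with normexp its difference was under 2-fold (-0.63). Nr1i2, the pregnane X receptor, was at -2.01 ± 0.27, and nearest 0 with normexp, at -1.05. Nr1h4, the bile acid receptor, was at -0.99 ± 0.27 by its brighter probe, but a second probe, well above background in the aneurysm library only, had a bound of 0.95, so its direction was not settled.

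Other hepatocyte genes were lower beside the apolipoproteins. Of 22 hepatocyte markers 20 had a value, and all 20 were at least 2-fold lower in the aneurysm library, from -5.65 to -1.20 with a median of -4.08 (19 of 20 with spike-in scaling, 17 with normexp). Over all genes 3.91% were. The list was chosen with earlier results of these arrays known, so nothing is read from this count. Among them were the bikunin precursor Ambp (-5.65) and the albumin gene Alb (-5.52). Their summed signal, in multiples of each array's 75th percentile, was 39.3 in control wall and 4.03 in the aneurysm library, a ratio of 9.76. Itih3, an inter-alpha-trypsin inhibitor heavy chain singled out here after its value was seen, made up 74.8% of the aneurysm sum, and without it the sums were 32.4 and 1.01, a ratio of 31.9. The summed signal of the 8 apolipoproteins was 11.3 and 1.01, a ratio of 11.3. Apoc1 made up 63.0% of that aneurysm sum, and without it the sums were 6.57 and 0.372, a ratio of 17.7. Of the 20 markers 9 were not well above background in the aneurysm library, so by the filter these could only come out lower. The 11 that passed on both arrays were all at least 2-fold lower, and without the filter 21 of 22 were. Cps1 and Tat were well above background on neither array. The range of the 8 apolipoproteins (-4.82 to -2.31) lay within that of these markers. The part of hepatocyte RNA in the differences was not tested.

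Markers of intestinal epithelium, the other main source of several of these apolipoproteins, gave no large values. Of 12 listed, 5 had a value, with a median of -0.12 and 0 at least 2-fold lower or higher, and Fabp2, Cdx2, Cdh17 and Krt20 were not well above background on either array. Their summed signal was 3.12 in control wall and 2.51 in the aneurysm library. Among the 5 were Rbp2, a retinol-binding protein (-0.45 ± 0.06), Lct, lactase (-0.42 ± 0.20), and Anpep, an aminopeptidase of many tissues (0.34 ± 0.09).

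Marker lists of cell types that can make Apoe and Apod outside liver had medians under 2-fold, except that of oligodendrocytes. Astrocyte markers had a median of -0.18 over 9 of 10, with a summed signal of 79.3 in control wall and 73.6 in the aneurysm library. By the brightest probe of each gene, the glutamate transporter Slc1a2 (-0.66 ± 0.06) had the largest difference among them. Of these markers 7 were below 0 and 2 above, up to 0.40. Aqp4 was at -0.18 ± 0.06 by its brightest probe, but dimmer probes gave -0.54 ± 0.12 and -0.80 ± 0.07. Macrophage and microglia markers had a median of 0.21 over 14 of 14, and summed to 101 and 114. The scavenger receptor Cd163 was at 0.65 ± 0.09 and the microglial gene Tmem119 at 0.60 ± 0.08, the highest of that list. A dimmer Tmem119 probe gave 0.35 ± 0.37. The list held 10 genes above 0 and 4 below, down to -0.39. Fibroblast and leptomeningeal markers had a median of -0.06 over 11 of 13, with Lum at 0.88 ± 0.11 and Ptgds, prostaglandin D synthase of the meninges, at -0.52 ± 0.05 (0.06 at its highest under the alternatives). Schwann cell markers had a median of 0.16 over 6 of 8, with the transcription factor gene Egr2 just under 2-fold higher. None of these 4 lists held a gene at least 2-fold lower or higher. Egr2 passed 2-fold with median centring, quantile normalization, loess centring and spike-in scaling, and was between 0.11 and 1.30 under the alternatives, while 2 fibroblast genes passed it with spike-in scaling. Medians between -0.30 and 0 in these and the lipid lists were above 0 with spike-in scaling. Oligodendrocyte markers had a median of -1.10, with 6 of 10 at least 2-fold lower (1 of 10 with spike-in scaling) and Mobp, a myelin protein, at -1.30 ± 0.06. Their summed signal was 169 in control wall and 86.8 in the aneurysm library, and its part in the values of Apoe and Apod was not tested.

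Choroid plexus and neuron markers were also lower in part. Of 6 choroid plexus markers with a value out of 8, 2 were at least 2-fold lower, the transthyretin gene Ttr, also a liver product, at -1.42 ± 0.05 and the transcription factor gene Otx2 at -1.08 ± 0.42 (-0.58 at its smallest). Of the 6, 4 were below 0 and 2 above, up to 0.33 ± 0.18 for Folr1. The list median was -0.41 and the summed signal 25.3 in control wall and 10.9 in the aneurysm library, of which Ttr made up 83.7% and 72.8%. Neuron markers had a median of -0.23 over 7 of 8, with the tubulin gene Tubb3 at -1.22 ± 0.07 (-0.92 at its smallest) as the 1 gene at least 2-fold lower. Of the 7, 6 were below 0 and 1 above. That gene, Slc17a7, was at 0.66 ± 0.67 and was well above background in the aneurysm library only. The neuron markers summed to 5.22 and 3.41. The part of these cells in the values of the 10 genes was not tested.

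**Figure D5:**
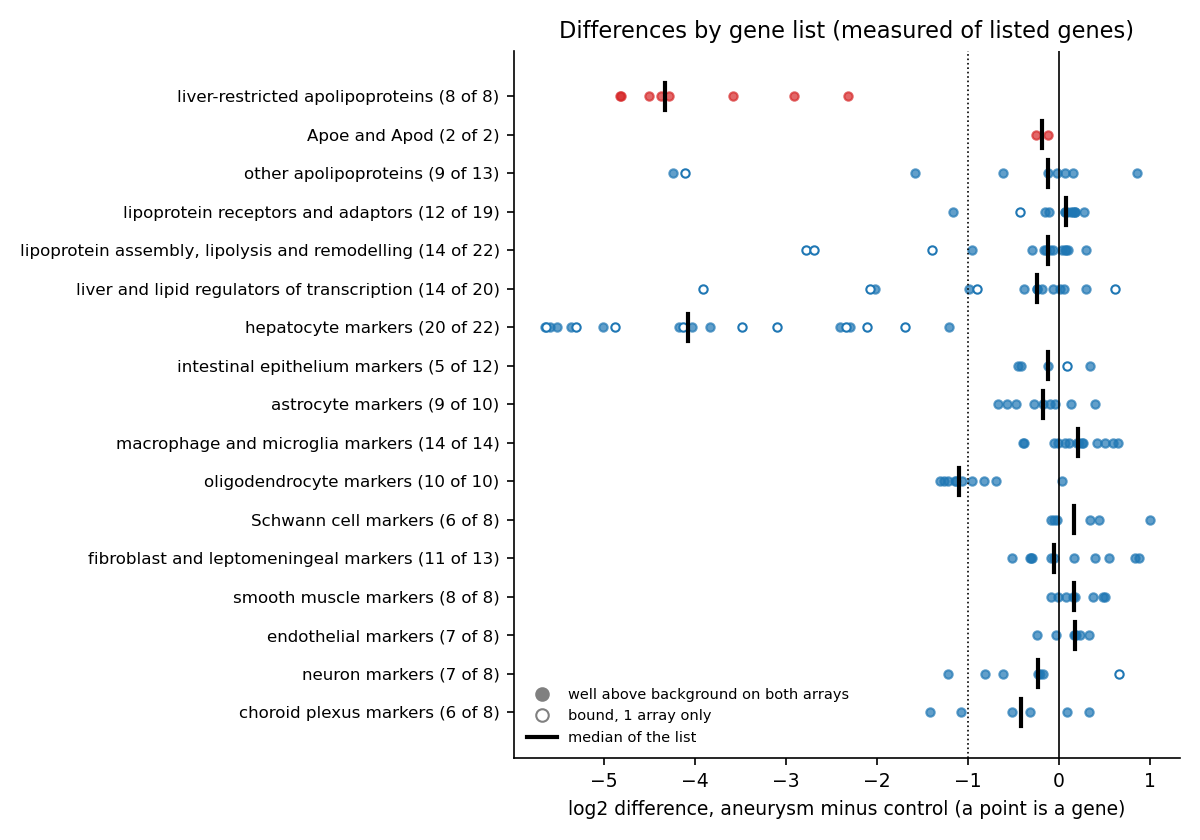
Log2 difference aneurysm minus control (x axis) of each measured gene of the 17 lists (y axis, with measured of listed genes). Filled points were well above background on both arrays, open points are bounds, thick bars are list medians and the dotted line marks a 2-fold lower signal. The 8 liver-restricted apolipoproteins (median -4.32) and the hepatocyte markers (-4.08) lie far below 0, and Apoe and Apod lie near 0 with the receptor, smooth muscle and endothelial lists.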

How the data were processed

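Extraction used a fibrous tissue kit and labelling a low-input one-colour kit, per the labels' protocols. The authors deposited scanner output of Feature Extraction 10.10.1.1, namely processed spot intensities on a linear scale and flags, per the file headers. How that software treated background is not known here. Per the file headers, slide and scan were shared by both arrays.

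Intensities were put on the log2 scale, the 75th percentile of non-control spots was subtracted per array, 484 and 573 outlier spots were left out and spots of a probe averaged. A probe counted as well above background unless most of its spots lacked the flag. Of 30367 probes, 18006 matched 1 gene by accession (RefSeq table, GRCr8). Genes took the brightest probe that passed on either array. Where 1 array was dim, a bound sets the bright value against the dim one, or against the lowest passing value of that array if higher. The spot error pools spot SDs in 20 signal bins.

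The 10 genes, the 17 lists and the naming rule (the 10 genes, cluster neighbours and up to 4 genes with the largest absolute difference per list) were chosen with earlier results of these data known. Some genes and 1 motif that were examined are not reported here. Protein sequences were not used here. Normexp ran with limma 3.58.1 on processed signals and, added after seeing the files, on median signals, and a 16-fold threshold and sums without a list's top gene were added too. The code was tested on simulated arrays.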

Additional observations from a re-analysis of the deposited data

How the results depend on the processing

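All 8 liver-restricted genes were at least 2-fold lower under each of the 11 alternatives of scaling, background, filter and probe choice (medians -4.32 to -2.74). The filter on dim probes and the probe choice could not change these genes or Apoe and Apod. Each had 1 probe, which passed on both arrays, so only scaling and background tested their values. Keeping outlier spots changed Apoc1 alone, to -2.91 from -2.91 after rounding. All 8 passed 4-fold and 5 passed 16-fold as reported, but 7 and 1 with normexp on processed signals, 6 and 0 on median signals, and 8 and 4 under scaling to spike-ins. Apoe and Apod stayed under 2-fold throughout. Counts over all genes at least 2-fold lower and higher moved more, from 465 and 105 to 406 and 165 under quantile normalization, 335 and 305 under scaling to spike-ins, 213 and 16 with normexp on processed signals, 193 and 14 on median signals, 756 and 183 with no filter on dim probes and 237 and 51 with probes well above background on both arrays only. The lower share of these calls, 81.6%, was then 71.1% under quantile normalization, 52.3% under scaling to spike-ins and 93.0% with normexp on processed signals. At 1.5-fold the counts were 1003 and 506, at 4-fold 178 and 2, and at 16-fold 60 and 0. With probes well above background on both arrays only, 11 hepatocyte markers remained measured and lower. Beyond the filter and the thresholds, whose construction changes the genes or values counted, the cause was not tested. Signal over background limits Apob most, whose aneurysm spots straddled it. No replicate could be left out, and no paired analysis was possible because each group has 1 array.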
